A study of Mus musculus with 10 samples.

Results

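The genes described here carry glucose through glycolysis to lactate or belong to the response to low oxygen. They were picked by name, 38 of the 22731 genes in the count table, and mapped by mouse symbol to the Ensembl identifiers of that table. By role they fell into 2 glucose transporters, 15 glycolytic enzymes, 2 enzymes that set fructose 2,6-bisphosphate, 4 genes of lactate handling and 2 pyruvate dehydrogenase kinases, together 25 genes of glucose metabolism. The rest were 11 targets of the hypoxia-inducible factors (HIF) that lie outside glucose metabolism, and the HIF alpha subunits Hif1a and Epas1.

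Glycolysis splits glucose into pyruvate, which lactate dehydrogenase can turn to lactate for export or which the pyruvate dehydrogenase complex can pass to the citrate cycle. HIF is a transcription factor whose alpha subunit is marked for destruction by oxygen-dependent prolyl hydroxylases, the Egln genes. When oxygen falls the subunit lasts longer, and many genes of glycolysis, together with genes of mitophagy, collagen hydroxylation and vessel growth, are among its known targets; many glycolytic genes are also known targets of other factors, Myc among them.

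Bulk RNA-seq was run on mouse fibroblasts grown in 3 ways: with group 2 innate lymphoid cells (ILC2s) lacking IL13 (IL13KO ILC2 coculture, 3 libraries), with WT ILC2s (3 libraries), or alone (monoculture, 4 libraries). IL13 is a cytokine that ILC2s release and fibroblasts bind. The series title places the study in the pancreas. All 10 samples carry the genotype label C57B6, and the labels give the IL13 knockout as that of the ILC2s. The fibroblasts were flow-sorted from mice for Pdpn and Pdgfra and against CD45, Epcam and CD31, and the sources used here give neither the number or age of the animals nor the oxygen, glucose or length of culture. For the sort that followed culture the series text names CD45 as present, which is the opposite of the first sort. Nothing in the labels ties libraries to separate animals or cultures, so the p-values measure the spread between these libraries, which may be technical.

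The depth was 17277432 to 17661229 reads counted to genes for IL13KO cocultures, 18801744 to 22087459 for WT cocultures and 10710410 to 14366199 for monocultures, so precision is lowest for weakly expressed genes in the monocultures. In counts scaled to a common library size (CPM), the sort marker Pdgfra was at 652 to 821 CPM in IL13KO cocultures, 557 to 747 CPM in WT cocultures, and 367 to 378 CPM in monocultures, and Pdpn at 270.3 to 303 CPM in IL13KO cocultures, 293 to 377 CPM in WT cocultures, and 238 to 298 CPM in monocultures. Reads of Ptprc, which encodes CD45, numbered 0, 1 and 0 in the IL13KO cocultures, 6, 3 and 9 in the WT cocultures and 0 in each monoculture. The summed level of 9 leukocyte markers in the table, most of it from Cd53, was 15.9 to 23.9 CPM in IL13KO cocultures, 101 to 124 CPM in WT cocultures, and 3.63 to 7.59 CPM in monocultures. Il13 had 0 reads in the IL13KO cocultures and the monocultures, against 30, 120 and 121 reads in the WT cocultures. Without Cd53 the other 8 summed to 3.0 to 4.95 CPM in IL13KO cocultures, 8.17 to 12.6 CPM in WT cocultures and 1.44 to 4.57 CPM in monocultures. Of the 10 leukocyte markers listed, 1, 1 and 5 had no read in any library of these groups, counting Dock2, which is not in the table. Leukocyte signal was thus highest in the WT cocultures, where most of the genes below were also highest. Other lists moved as well: 7 fibroblast markers summed to 15623 to 18942 CPM in IL13KO cocultures, 8140.4 to 12395 CPM in WT cocultures, and 5825 to 7605 CPM in monocultures, 5 mural markers to 71.8 to 93.1 CPM in IL13KO cocultures, 12.3 to 18.2 CPM in WT cocultures, and 59.1 to 88.1 CPM in monocultures, and 5 macrophage markers to 35.3 to 37.1 CPM in IL13KO cocultures, 14.9 to 17.7 CPM in WT cocultures, and 58.4 to 65.6 CPM in monocultures. The ILC2 markers summed to 59.4 to 63.8 CPM in IL13KO cocultures, 57.6 to 75.6 CPM in WT cocultures, and 61.3 to 73.5 CPM in monocultures, most of it from Rora; without Rora the other 8 gave 2.78 to 12.1 CPM in IL13KO cocultures, 10 to 34.8 CPM in WT cocultures and 1.41 to 2.32 CPM in monocultures, lowest in the monocultures and with overlap between the cocultures. The part of these cell markers in the results was not tested. In bulk RNA, fewer cells of a type and less RNA per cell cannot be told apart.

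Most glycolysis genes rose in WT cocultures, fewer did so in IL13KO cocultures, and the HIF targets with other roles were called in both directions, as all genes were. All 38 genes passed the filter on low counts. A gene is called when its adjusted p, from edgeR's quasi-likelihood test with Benjamini-Hochberg adjustment over the 16344 genes tested, is below 0.05. In WT cocultures against monocultures 34 of 38 were called, 29 higher and 5 lower, where 62.5% of all genes tested were called, 32.8% higher and 29.7% lower. Changes of at least 2-fold were called for 19 genes upward, against 21.6% of all genes, and for 1 downward, against 12%. The median log2 fold change was 1.03 over the 38 and 0.02 over all genes. In IL13KO cocultures against monocultures 28 were called, 22 higher and 6 lower, with 57.4% of all genes called, 30.1% higher and 27.3% lower. At least 2-fold, 12 rose and 2 fell, against 19.6% and 4.96% of all genes, and the median was 0.46 over the 38 and 0.00 over all genes. These comparisons share the 4 monocultures. In IL13KO against WT cocultures 22 of 38 were called, 21 lower and 1 higher, with 23.3% of all genes called, 11.6% lower and 11.7% higher. At least 2-fold, 6 were lower and 1 was higher, against 4.37% and 5.34% of all genes, and the median was -0.54.

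Of the 25 glucose metabolism genes, 22 were higher and 1 was lower in WT cocultures than in monocultures, and 17 were higher and 1 lower in IL13KO cocultures, with medians of 1.22 and 0.72. The 15 glycolytic enzymes among them gave 14 higher and 0 lower in WT cocultures, and 9 and 0 in IL13KO cocultures. Of the 11 HIF targets outside glucose metabolism, 5 were higher and 4 lower in WT cocultures, and 3 were higher and 5 lower in IL13KO cocultures, with medians of 0.25 and -0.11. Beside the 32.8% higher and 29.7% lower of all genes in WT cocultures, and 30.1% and 27.3% in IL13KO cocultures, the counts over these 11 are a description. Between the cocultures, where 11.6% of all genes were called lower, 14 of 25 and 6 of 11 were lower in IL13KO than in WT cocultures, with medians of -0.64 and -0.43. Together the 15 glycolytic enzymes took 0.819%, 0.751% and 0.877% of counted reads in IL13KO cocultures. They took 1.06%, 1.16% and 1.20% in WT cocultures, and 0.375%, 0.530%, 0.551% and 0.479% in monocultures. The 3 groups did not overlap in that share, with the IL13KO cocultures in between. The HIF targets with other roles took 0.190% to 0.213% in IL13KO cocultures, 0.241% to 0.302% in WT cocultures and 0.177% to 0.202% in monocultures. The plot of fold changes sets the roles beside each other.

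**Figure D1:**
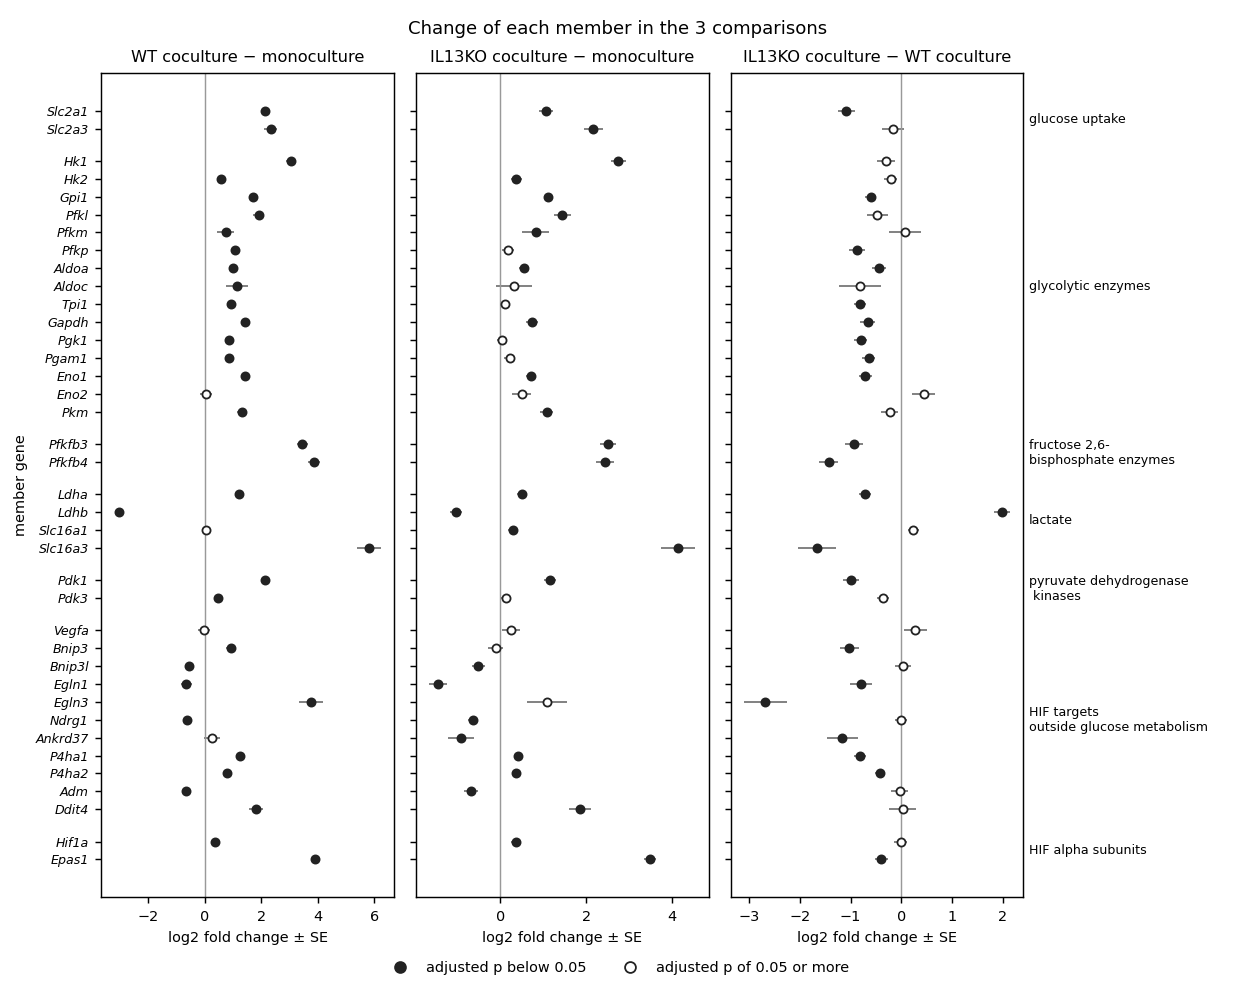
Log2 fold change (x axis, bars ± SE from edgeR) of each of the 38 genes (y axis, grouped by role) for WT coculture minus monoculture, IL13KO coculture minus monoculture and IL13KO coculture minus WT coculture. Filled points have an adjusted p below 0.05; 22 of 25 glucose metabolism genes are filled and above 0 in the first panel, and 21 of the 38 genes are filled and below 0 in the third.

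Promoters are printed for 5 genes on which the results turn: the lactate exporter gene Slc16a3, which rose most, the lactate dehydrogenase pair Ldha and Ldhb, which moved in opposite directions, the glucose transporter gene Slc2a1, and Egln3, the HIF target outside glucose metabolism that rose most in WT cocultures. Each sequence runs 5′ to 3′ on the gene's strand, from 250 bases before to 50 bases after a RefSeq start in GRCm38.p6: Slc16a3 (ENSMUSG00000025161) at chr11:120948817-120949116 (+ strand), Ldha (ENSMUSG00000063229) at chr7:46845554-46845853 (+ strand), Ldhb (ENSMUSG00000030246) at chr6:142507908-142508207 (- strand), Slc2a1 (ENSMUSG00000028645) at chr4:119108495-119108794 (+ strand) and Egln3 (ENSMUSG00000035105) at chr12:54203825-54204124 (- strand). Capitals mark ACGTG and GCGTG, the core letters of the HIF response element, on either strand, with adjoining matches run together.
Slc16a3: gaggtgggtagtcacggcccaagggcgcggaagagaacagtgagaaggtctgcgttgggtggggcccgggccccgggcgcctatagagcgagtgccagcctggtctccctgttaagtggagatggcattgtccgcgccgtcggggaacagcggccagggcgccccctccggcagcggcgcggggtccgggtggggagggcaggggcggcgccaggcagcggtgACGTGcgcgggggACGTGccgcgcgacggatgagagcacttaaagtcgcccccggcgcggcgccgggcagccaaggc
Ldha: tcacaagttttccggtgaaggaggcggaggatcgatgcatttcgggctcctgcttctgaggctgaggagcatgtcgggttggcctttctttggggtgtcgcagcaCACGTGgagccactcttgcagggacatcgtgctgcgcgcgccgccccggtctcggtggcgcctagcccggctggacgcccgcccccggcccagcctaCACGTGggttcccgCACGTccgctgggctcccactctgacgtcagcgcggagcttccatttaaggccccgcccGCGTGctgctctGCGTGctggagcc
Ldhb: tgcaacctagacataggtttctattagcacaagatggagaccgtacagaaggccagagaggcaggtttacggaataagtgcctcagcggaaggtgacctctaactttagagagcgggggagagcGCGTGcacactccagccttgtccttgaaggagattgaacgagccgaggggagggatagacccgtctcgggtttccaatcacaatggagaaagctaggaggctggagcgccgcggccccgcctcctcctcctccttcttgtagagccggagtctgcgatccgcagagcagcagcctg
Slc2a1: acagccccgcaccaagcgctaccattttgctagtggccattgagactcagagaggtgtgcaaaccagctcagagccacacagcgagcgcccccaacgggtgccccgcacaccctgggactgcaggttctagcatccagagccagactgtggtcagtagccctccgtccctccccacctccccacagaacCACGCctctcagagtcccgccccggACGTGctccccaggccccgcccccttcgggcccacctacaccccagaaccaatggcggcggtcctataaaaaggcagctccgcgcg
Egln3: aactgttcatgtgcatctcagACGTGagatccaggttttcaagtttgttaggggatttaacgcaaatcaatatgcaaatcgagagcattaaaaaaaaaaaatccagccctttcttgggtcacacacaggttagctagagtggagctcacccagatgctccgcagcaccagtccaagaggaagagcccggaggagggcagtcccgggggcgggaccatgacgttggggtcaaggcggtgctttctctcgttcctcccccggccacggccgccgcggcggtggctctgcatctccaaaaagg
Slc16a3 held 2 such stretches, Ldha 5, of which the last 2 lie after the start, Slc2a1 2, and Ldhb and Egln3 1 each, that of Egln3 near the far end of the window.

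RefSeq windows matched 34 of the 38 genes by symbol, all but Slc2a3, Bnip3l, Ndrg1 and Epas1. In 31 of those 34 at least 1 window held the letters, 91.2%, against 66.9% of the 10637 tested genes with a window, counted the same way, and 43.8% of all 32851 single windows. The median GC content of the windows was 62.8% for these genes and 52.7% over all windows. Gpi1, Tpi1 and Eno2 had no match in their windows. The letters are short and a match is no sign of binding; genes with matches rose, fell and stayed uncalled.

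Both glucose transporter genes were called higher in both cocultures, but the call of Slc2a1 in IL13KO cocultures was lost with the GC and length trend removed (0.24, adjusted p = 0.0725). Slc2a1, which encodes the widely expressed glucose transporter GLUT1, had 139, 122 and 123 CPM in IL13KO cocultures, 258, 264 and 292 CPM in WT cocultures, and 41.0, 66.2, 74.8 and 63.6 CPM in monocultures. The 3 groups did not overlap, and the IL13KO cocultures lay between the others. Slc2a1 was 4.42-fold higher in WT cocultures than in monocultures (log2 fold change 2.14 ± 0.16, adjusted p = 2.27e-07). It was 2.09-fold higher in IL13KO cocultures (log2 fold change 1.06 ± 0.16, adjusted p = 0.000102), and lower in IL13KO than in WT cocultures (log2 fold change -1.08 ± 0.17, adjusted p = 0.000558). Slc2a3, which encodes the high-affinity transporter GLUT3, was at 12.4, 12.5 and 11.6 CPM in IL13KO cocultures, 11.1, 17.3 and 12.3 CPM in WT cocultures, and 1.86, 3.11, 3.23 and 2.6 CPM in monocultures. Both cocultures lay above every monoculture and overlapped each other, and Slc2a3 was the lower of the pair in every library. Its log2 fold change was 2.33 ± 0.22, adjusted p = 1.54e-06 in WT cocultures and 2.17 ± 0.22, adjusted p = 5.81e-06 in IL13KO cocultures, with -0.16 ± 0.21, adjusted p = 0.632 between the cocultures. Read per length, the ratio of Slc2a1 to Slc2a3 was 18.7 to 21.6 in IL13KO cocultures, 29.2 to 45.4 in WT cocultures, and 40.8 to 46.9 in monocultures.

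**Figure D2:**
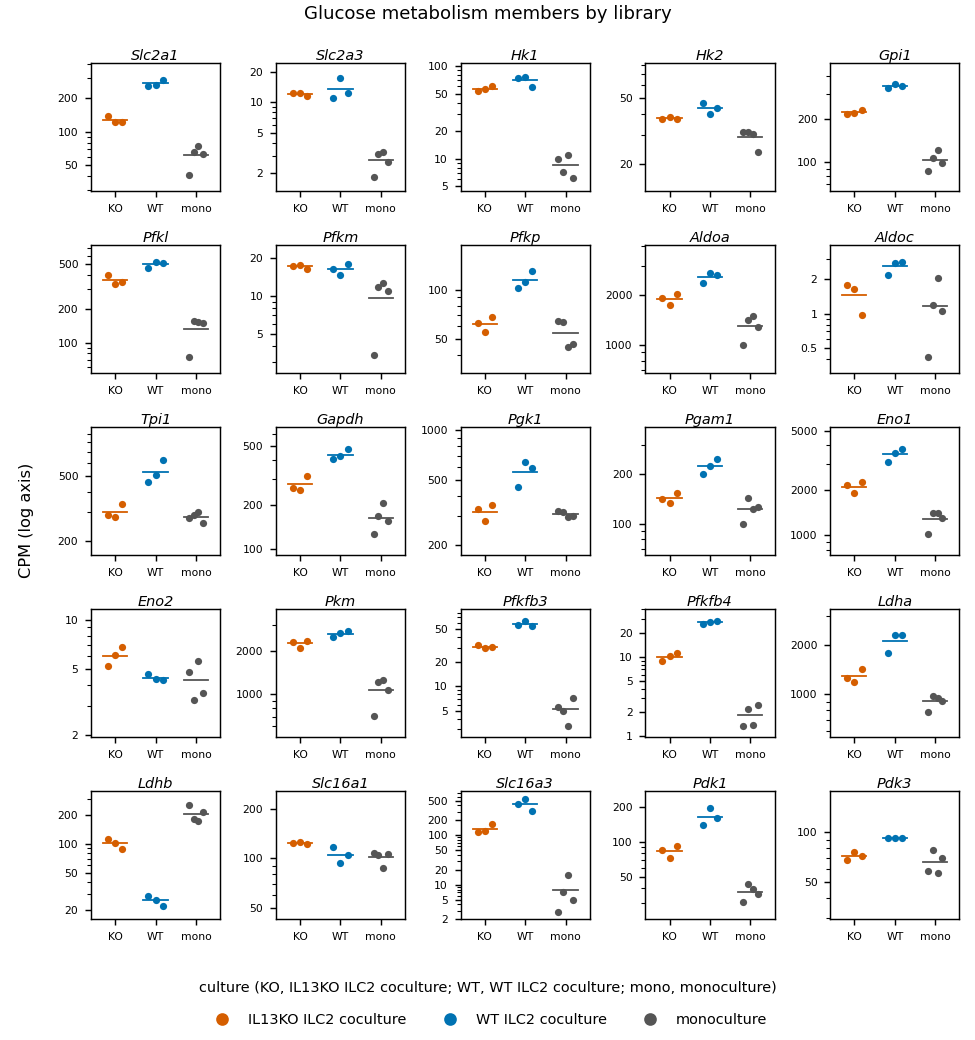
CPM (log axis) of the 25 glucose metabolism genes in each library, with a bar at the mean of the 3 IL13KO ILC2 cocultures, 3 WT ILC2 cocultures and 4 monocultures. Slc16a3 spans 2.79 to 546 CPM, and Ldhb is the 1 gene whose WT cocultures lie below all other libraries, at 22.5 to 28.5 CPM.

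Of the hexokinases, which trap glucose in the cell as glucose 6-phosphate, Hk1, the form of most tissues, rose by more than Hk2, a known HIF target. Hk1 had 53.8, 56.6 and 60.4 CPM in IL13KO cocultures, 74.5, 76.0 and 59.3 CPM in WT cocultures, and 9.80, 7.18, 11.1 and 6.19 CPM in monocultures. Every coculture lay above every monoculture, and the cocultures overlapped. It was 8.17-fold higher in WT cocultures (log2 fold change 3.04 ± 0.18, adjusted p = 3.25e-08). It was 6.65-fold higher in IL13KO cocultures (log2 fold change 2.74 ± 0.18, adjusted p = 3.17e-07). Hk2 had 37.5, 38.3 and 37.7 CPM in IL13KO cocultures, 47.1, 40.3 and 43.5 CPM in WT cocultures, and 31.3, 31.3, 30.4 and 23.6 CPM in monocultures. Its groups did not overlap, but the steps were small: a log2 fold change of 0.58 ± 0.12, adjusted p = 0.000895 in WT cocultures and 0.38 ± 0.12, adjusted p = 0.0165 in IL13KO cocultures, both of which turned negative once the trend over GC content and length was removed (-0.31, adjusted p = 0.0602 in WT and -0.64, adjusted p = 0.00177 in IL13KO cocultures). The IL13KO call for Hk2 also ended with upper-quartile scaling (adjusted p = 0.0686). Within a library, the ratio of Hk2 to Hk1, each read per length, was 0.485 to 0.542 in IL13KO cocultures, 0.412 to 0.569 in WT cocultures, and 2.13 to 3.38 in monocultures. The more abundant hexokinase transcript was Hk1 in all 6 cocultures and Hk2 in all 4 monocultures. Neither gene was called between the cocultures (Hk1 -0.30 ± 0.17, adjusted p = 0.24; Hk2 -0.21 ± 0.13, adjusted p = 0.272).

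The steps from glucose 6-phosphate to the trioses were mostly higher in cocultures. Gpi1, the isomerase that makes fructose 6-phosphate, was at 219, 223 and 233 CPM in IL13KO cocultures, 329.9, 352 and 342 CPM in WT cocultures, and 87.1, 106, 121 and 99.1 CPM in monocultures. Its groups did not overlap, with log2 fold changes of 1.72 ± 0.10, adjusted p = 4.4e-08 in WT cocultures, 1.12 ± 0.10, adjusted p = 3.04e-06 in IL13KO cocultures and -0.60 ± 0.11, adjusted p = 0.00172 between the cocultures. Phosphofructokinase, the main control point of glycolysis, has a liver, a muscle and a platelet form. Pfkl, the liver form, was at 405, 333 and 348 CPM in IL13KO cocultures, 467, 529 and 511 CPM in WT cocultures, and 74.2, 156, 154 and 149 CPM in monocultures, and monoculture 1 stood below the other monocultures by more than their own spread. Pfkl rose in WT cocultures (log2 fold change 1.91 ± 0.20, adjusted p = 3.98e-06) and IL13KO cocultures (1.44 ± 0.20, adjusted p = 6.02e-05), and its difference between the cocultures was not called (-0.47 ± 0.21, adjusted p = 0.131). It was called without monoculture 1 (adjusted p = 0.00194), with only these groups fitted (0.00288) and after removal of the GC and length trend (0.00936). Against monocultures, removal of that trend ended the IL13KO call of Pfkl (0.077, adjusted p = 0.722). It cut the WT rise of Pfkl to 0.76 (adjusted p = 0.00106). Pfkp, the platelet form, ran at 55.6 to 68.6 CPM in IL13KO cocultures, 102 to 129.5 CPM in WT cocultures, and 44.7 to 64.4 CPM in monocultures. It rose in WT cocultures (log2 fold change 1.06 ± 0.15, adjusted p = 3.89e-05), had 0.18 ± 0.15, adjusted p = 0.305 in IL13KO cocultures, and was lower in IL13KO than in WT cocultures (-0.88 ± 0.16, adjusted p = 0.00148). Pfkm, the muscle form, ran at 16.4 to 17.5 CPM in IL13KO cocultures, 14.5 to 17.9 CPM in WT cocultures, and 3.38 to 12.6 CPM in monocultures, with the lowest value in monoculture 1. Its calls in WT cocultures (0.75 ± 0.30, adjusted p = 0.0458) and IL13KO cocultures (0.82 ± 0.30, adjusted p = 0.0341) were lost in 11 and 7 of 20 alternatives, which were other scalings, filters, models and tools and the omission of each library. In WT cocultures these included leaving out any 1 coculture (adjusted p = 0.0603 to 0.12) or monoculture 4 (0.0575). In IL13KO cocultures they included leaving out IL13KO coculture 1, 2 or 3 (0.0674 to 0.0831) or WT coculture 3 (0.0511). Without monoculture 1 the changes were 0.47 and 0.54.

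Aldoa, the aldolase of most tissues, was among the most abundant of the 38 transcripts and had 1923, 1728 and 2038 CPM in IL13KO cocultures, 2355, 2705 and 2634 CPM in WT cocultures, and 989, 1408, 1484 and 1280.3 CPM in monocultures. The groups did not overlap. Its log2 fold change was 0.99 ± 0.12, adjusted p = 1.93e-05 in WT cocultures, 0.56 ± 0.13, adjusted p = 0.00211 in IL13KO cocultures and -0.44 ± 0.13, adjusted p = 0.0333 between the cocultures. The last call was lost without IL13KO coculture 1 (adjusted p = 0.0863), IL13KO coculture 2 (0.139), WT coculture 3 (0.0885) or WT coculture 4 (0.093). Aldoc, the brain form and a known HIF target, was barely expressed, at 0.964 to 1.76 CPM in IL13KO cocultures, 2.15 to 2.80 CPM in WT cocultures, and 0.422 to 2.03 CPM in monocultures. It was called higher in WT cocultures (log2 fold change 1.14 ± 0.40, adjusted p = 0.0236), a call lost without WT coculture 3 (adjusted p = 0.0696) or 4 (0.0665), and in no other comparison (IL13KO against monoculture 0.32 ± 0.42; IL13KO against WT -0.82 ± 0.41). Tpi1, which interconverts the trioses, had 288, 279 and 337 CPM in IL13KO cocultures, 456, 507 and 626 CPM in WT cocultures, and 276, 289, 302 and 257 CPM in monocultures. The WT cocultures stood apart and the other groups overlapped: 0.91 ± 0.11, adjusted p = 1.81e-05 in WT cocultures, 0.10 ± 0.12, adjusted p = 0.468 in IL13KO cocultures and -0.81 ± 0.12, adjusted p = 0.000495 between the cocultures.

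In the later steps, Pgk1 and Pgam1 were called higher in WT cocultures alone, and Eno1 and Pkm in both cocultures. With the GC and length trend removed, Eno1 (0.098, adjusted p = 0.426) and Pkm (0.14, adjusted p = 0.272) lost their calls in IL13KO cocultures and Pgk1 gained one (0.27, adjusted p = 0.041). Pgk1, phosphoglycerate kinase, had 329.9, 281 and 348 CPM in IL13KO cocultures, 449.6, 639 and 585 CPM in WT cocultures, and 320.2, 319, 294 and 301 CPM in monocultures. The IL13KO cocultures overlapped the monocultures, and all 3 WT cocultures lay above both. Its log2 fold change was 0.85 ± 0.12, adjusted p = 3.82e-05 in WT cocultures, 0.051 ± 0.12, adjusted p = 0.732 in IL13KO cocultures and -0.80 ± 0.13, adjusted p = 0.000624 between the cocultures. Pgam1, phosphoglycerate mutase, ran at 133 to 154 CPM in IL13KO cocultures, 199.6 to 247 CPM in WT cocultures, and 99.5 to 143 CPM in monocultures, with 0.86 ± 0.12, adjusted p = 4.44e-05, 0.22 ± 0.12, adjusted p = 0.138 and -0.64 ± 0.13, adjusted p = 0.00329 for the same comparisons. Eno1, the main enolase, had 2155, 1919 and 2272 CPM in IL13KO cocultures, 3105, 3542 and 3752 CPM in WT cocultures, and 1026, 1417, 1402 and 1307 CPM in monocultures. No groups overlapped, and it was 2.69-fold higher in WT cocultures (log2 fold change 1.43 ± 0.12, adjusted p = 5.7e-07), 1.64-fold higher in IL13KO cocultures (0.72 ± 0.12, adjusted p = 0.000221) and lower in IL13KO than in WT cocultures (-0.71 ± 0.13, adjusted p = 0.00146). Eno2, the neuronal enolase and a known HIF target, stayed at 3.26 to 6.86 CPM over all libraries and was called in none of the comparisons (WT 0.055 ± 0.22, adjusted p = 0.844; IL13KO 0.50 ± 0.22, adjusted p = 0.067; IL13KO against WT 0.44 ± 0.23, adjusted p = 0.188), although its IL13KO value against monocultures was called without monoculture 3 (adjusted p = 0.0208). Across the alternatives that IL13KO value ran from -0.28 to 0.64. The WT value was called lower with the GC and length trend removed (-0.65, adjusted p = 0.0301).

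Pkm, pyruvate kinase, ran at 2080.3 to 2353 CPM in IL13KO cocultures, 2499 to 2759 CPM in WT cocultures, and 704 to 1251 CPM in monocultures; gene counts do not separate its M1 and M2 splice forms. It rose in WT cocultures (log2 fold change 1.31 ± 0.16, adjusted p = 1.25e-05) and in IL13KO cocultures (1.08 ± 0.16, adjusted p = 8.7e-05), and was not called between them (-0.23 ± 0.17, adjusted p = 0.363). Gapdh, which oxidises the triose phosphate, ran at 252 to 314 CPM in IL13KO cocultures, 408 to 474 CPM in WT cocultures, and 127 to 204 CPM in monocultures, with 1.41 ± 0.14, adjusted p = 2.54e-06 in WT cocultures, 0.75 ± 0.14, adjusted p = 0.000577 in IL13KO cocultures and -0.66 ± 0.15, adjusted p = 0.00651 between the cocultures. Gapdh is often used to scale expression between samples; here its groups did not overlap.

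Near-identical copies elsewhere in the genome make the level of 11 of the 38 genes uncertain. Transcripts of 86 other annotated genes in the table matched these 11 with at least 95% identity, 67 of them to Gapdh. Reads at such copies made up 41.5% ± 0.972 of the summed reads of Pgam1 and its copies in the IL13KO cocultures, 40.9% ± 1.41 in the WT cocultures and 40.2% ± 1.70 in the monocultures (SD, n = 3, 3 and 4), 28.5% to 29.2% of those of Pgk1, 26.8% to 27.2% of those of Eno1, and 15.3% to 17.7% of those of Gapdh. Counts that split between a gene and its copies are uncertain for both. Adding the copies' reads changed none of the 114 calls of the 38 genes. That step uses only reads already counted to a copy. Reads that counting may have dropped cannot be recovered by it, so their part in the calls was not tested. Exon bases shared with a gene on the other strand came to 26.4% for Ankrd37, 22.3% for Bnip3 and 11.5% for Gpi1, and the sources used here do not say whether counting used strand.

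Both enzymes that make and break fructose 2,6-bisphosphate, the strongest activator of phosphofructokinase, rose by more than any glycolytic enzyme in WT cocultures. Pfkfb3, the form with the highest kinase activity, had 31.9, 29.3 and 30.3 CPM in IL13KO cocultures, 57.3, 62.8 and 54.6 CPM in WT cocultures, and 5.66, 4.96, 3.32 and 7.17 CPM in monocultures. Pfkfb4 had 8.96, 10.4 and 11.2 CPM in IL13KO cocultures, 25.9, 27.8 and 28.6 CPM in WT cocultures, and 1.35, 2.22, 1.38 and 2.46 CPM in monocultures. For both genes the 3 groups were apart, in the same order. Pfkfb3 was 11.0-fold higher in WT cocultures (log2 fold change 3.45 ± 0.19, adjusted p = 1.97e-08) and 5.78-fold higher in IL13KO cocultures (2.52 ± 0.18, adjusted p = 7.02e-07), with -0.93 ± 0.18, adjusted p = 0.00242 between the cocultures. Pfkfb4 was 14.8-fold higher in WT cocultures (log2 fold change 3.86 ± 0.21, adjusted p = 1.78e-08) and 5.49-fold higher in IL13KO cocultures (2.43 ± 0.21, adjusted p = 1.85e-06), with -1.43 ± 0.19, adjusted p = 0.000194 between them.

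Lactate handling held the strongest rise and, in WT cocultures, the strongest fall among the 38 genes. Slc16a3 encodes MCT4, the exporter of strongly glycolytic cells, and had 117, 119.9 and 166 CPM in IL13KO cocultures, 429, 546 and 304 CPM in WT cocultures, and 2.79, 7.26, 16.0 and 4.85 CPM in monocultures. Its groups lay far apart. It was 55.1-fold higher in WT cocultures (log2 fold change 5.81 ± 0.41, adjusted p = 1.76e-07), 17.4-fold higher in IL13KO cocultures (4.14 ± 0.40, adjusted p = 4.11e-06), and lower in IL13KO than in WT cocultures (-1.67 ± 0.37, adjusted p = 0.00632). Without monoculture 3, its highest monoculture, the rises were 6.40 and 4.74. Slc16a1 encodes MCT1, which carries lactate both ways, and stayed at 123 to 125 CPM in IL13KO cocultures, 94.0 to 117 CPM in WT cocultures, and 86.8 to 108 CPM in monocultures. It was not called in WT cocultures (0.053 ± 0.10, adjusted p = 0.673) or between the cocultures (0.23 ± 0.11, adjusted p = 0.146); its small rise in IL13KO cocultures (0.29 ± 0.10, adjusted p = 0.0289) was lost without IL13KO coculture 1 (adjusted p = 0.0689), 2 (0.0737) or 3 (0.0605) or monoculture 3 (0.0626), and with upper-quartile scaling (0.138).

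The subunits of lactate dehydrogenase changed in opposite directions. Ldha, the muscle-type subunit that favours lactate formation, had 1244, 1180.3 and 1427 CPM in IL13KO cocultures, 1786, 2280.0 and 2276 CPM in WT cocultures, and 781, 976, 949.8 and 911 CPM in monocultures. Its groups did not overlap, with log2 fold changes of 1.22 ± 0.11, adjusted p = 1.42e-06 in WT cocultures, 0.51 ± 0.11, adjusted p = 0.002 in IL13KO cocultures and -0.72 ± 0.12, adjusted p = 0.00106 between the cocultures. Ldhb, the heart-type subunit, had 112, 104 and 88.2 CPM in IL13KO cocultures, 28.5, 25.9 and 22.5 CPM in WT cocultures, and 256, 182, 174 and 219 CPM in monocultures. Here the order was turned round: every WT coculture lay below every IL13KO coculture, and these below every monoculture. Ldhb fell to a level 8.11-fold lower in WT cocultures (log2 fold change -3.02 ± 0.16, adjusted p = 1.65e-08) and 2.05-fold lower in IL13KO cocultures (-1.03 ± 0.14, adjusted p = 6.61e-05). It was the only one of the 38 genes called higher in IL13KO than in WT cocultures (1.98 ± 0.16, adjusted p = 3.22e-06), as fitted and in each of the 20 alternatives.

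The pyruvate dehydrogenase kinases switch off the entry of pyruvate into the citrate cycle, and Pdk1 is a known HIF target. Pdk1 had 84.5, 72.1 and 91.8 CPM in IL13KO cocultures, 140.1, 193 and 159 CPM in WT cocultures, and 30.1, 43.5, 38.9 and 35.5 CPM in monocultures. Its groups were apart, at 2.15 ± 0.14, adjusted p = 1.07e-07 in WT cocultures, 1.16 ± 0.14, adjusted p = 2.59e-05 in IL13KO cocultures and -0.99 ± 0.15, adjusted p = 0.000528 between the cocultures on the log2 scale. Pdk3 ran at 67.4 to 75.4 CPM in IL13KO cocultures, 91.4 to 92.3 CPM in WT cocultures, and 56.3 to 78.1 CPM in monocultures. It was called in WT cocultures alone (0.49 ± 0.12, adjusted p = 0.00254; IL13KO 0.13 ± 0.12, adjusted p = 0.374), and its difference between the cocultures, -0.36 ± 0.12, adjusted p = 0.0511, passed the threshold in 8 of 20 alternatives, among them without monoculture 1 (adjusted p = 0.0287), 2 (0.0304) or 3 (0.0294).

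Ratios within a library do not depend on how libraries are scaled, and 14 pairs of related genes were compared that way, each read per length. They can still carry the trend over GC content and length given below, and were not computed with it removed. In WT cocultures against monocultures its removal shifted the log2 fold change of Slc16a3 by -1.19 and that of Slc16a1 by 0.23. The ratio of Ldha to Ldhb was 7.95 to 11.6 in IL13KO cocultures, 45.0 to 72.8 in WT cocultures, and 2.19 to 3.92 in monocultures. That of Slc16a3 to Slc16a1 was 0.962 to 1.38 in IL13KO cocultures, 2.96 to 5.93 in WT cocultures, and 0.0264 to 0.189 in monocultures. For both pairs the 3 groups were apart, with the IL13KO cocultures in between. That of Pdk3 to Pdk1 was 1.92 to 2.56 in IL13KO cocultures, 1.17 to 1.61 in WT cocultures, and 3.55 to 4.82 in monocultures. For the platelet over the liver phosphofructokinase, Pfkp to Pfkl, it was 0.0665 to 0.0846 in IL13KO cocultures, 0.0906 to 0.109 in WT cocultures, and 0.125 to 0.373 in monocultures. Here the monocultures were highest. Groups did not overlap for 11 of 14 pairs in WT cocultures against monocultures, for 8 of 14 in IL13KO cocultures against monocultures and for 12 of 14 in IL13KO against WT cocultures. Of all single genes, 62.5%, 57.4% and 23.3% were called in these comparisons, and no such share was computed for other gene pairs, so the counts of pairs are a description. The exact two-sided permutation test over libraries was run with the smaller tail doubled. Its smallest possible p is then 0.0571 for 3 against 4 libraries and 0.1 for 3 against 3. After adjustment over all 42 tests the smallest was 0.126, so no ratio could pass 0.05 by this test. Without any 1 library, 31 to 33 of the 42 comparisons did not overlap.

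**Figure D3:**
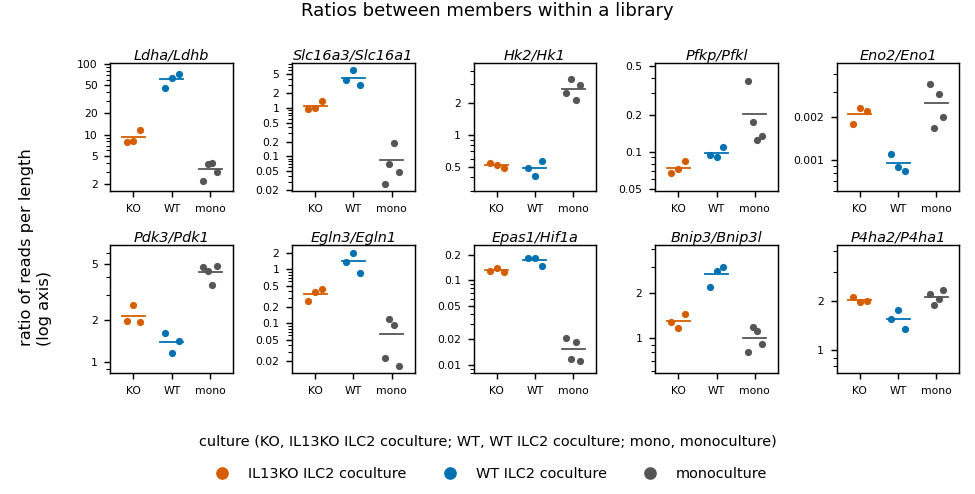
Ratio of reads per length between 2 related genes (log axis) in each library, for 10 of the 14 pairs, with a bar at the mean of the 3 IL13KO ILC2 cocultures, 3 WT ILC2 cocultures and 4 monocultures. Ldha over Ldhb is 45.0 to 72.8 in WT cocultures, against 2.19 to 3.92 in monocultures, and Hk2 over Hk1 is above 1 in the monocultures alone.

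The HIF alpha subunits differed from each other in size of change. Hif1a had 675, 619 and 654 CPM in IL13KO cocultures, 667, 587 and 709.5 CPM in WT cocultures, and 426, 619.6, 459 and 513 CPM in monocultures. Its groups overlapped, and the rises were small, at 0.38 ± 0.12, adjusted p = 0.0154 in WT cocultures and 0.36 ± 0.12, adjusted p = 0.0201 in IL13KO cocultures, with -0.011 ± 0.13, adjusted p = 0.965 between the cocultures. The WT call was lost without WT coculture 4 (adjusted p = 0.061) and the IL13KO call without IL13KO coculture 1 (0.0657) or 3 (0.0516), and both were lost with upper-quartile scaling (0.0691 and 0.0673). Epas1, which encodes the other alpha subunit, had 101, 102 and 95 CPM in IL13KO cocultures, 143, 125 and 122 CPM in WT cocultures, and 10.4, 8.44, 9.96 and 6.61 CPM in monocultures. All cocultures lay far above all monocultures, 14.7-fold in WT cocultures (log2 fold change 3.88 ± 0.14, adjusted p = 1.1e-09) and 11.2-fold in IL13KO cocultures (3.49 ± 0.14, adjusted p = 3.28e-08). Between the cocultures Epas1 was called lower in IL13KO at the edge of the threshold (-0.39 ± 0.13, adjusted p = 0.0498), and 11 of 20 alternatives ended that call, among them leaving out any 1 coculture (adjusted p = 0.0754 to 0.151) or monoculture 2 (0.0616). Per length, the ratio of Epas1 to Hif1a was 0.124 to 0.141 in IL13KO cocultures, 0.147 to 0.184 in WT cocultures, and 0.0110 to 0.0209 in monocultures. Hif1a was thus the more abundant subunit transcript in every library. HIF activity is set largely through the protein, which was not measured.

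**Figure D4:**
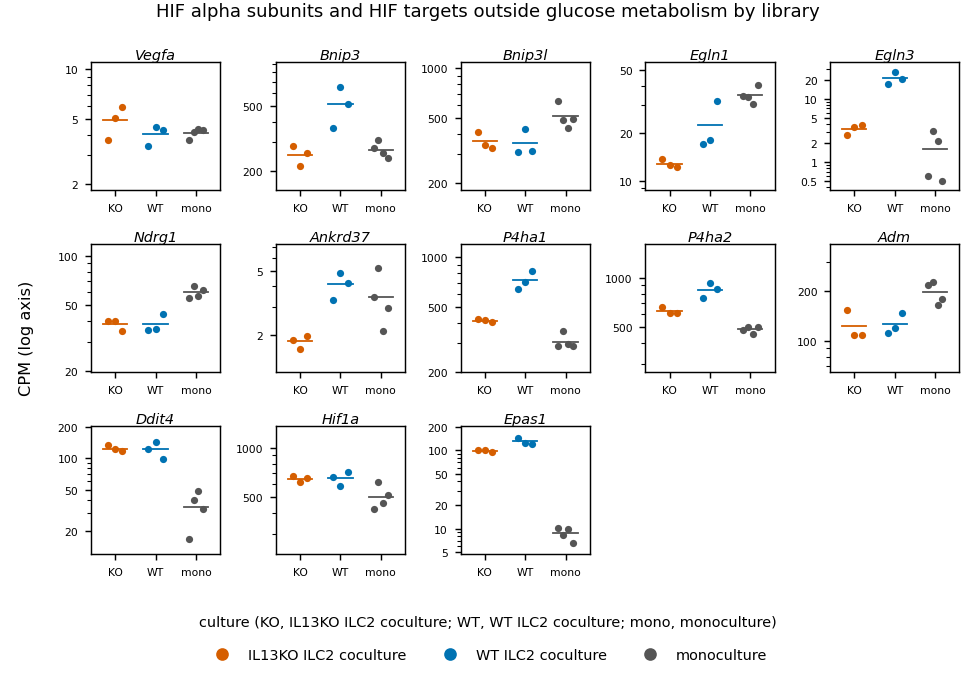
CPM (log axis) of 11 HIF targets outside glucose metabolism and of Hif1a and Epas1 in each library, with a bar at the mean of the 3 IL13KO ILC2 cocultures, 3 WT ILC2 cocultures and 4 monocultures. Vegfa stays between 3.41 and 5.95 CPM in all 10 libraries, while Egln3 reaches 17.2 to 26.8 CPM in the WT cocultures and no more than 3.86 CPM elsewhere.

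The prolyl hydroxylases that mark HIF for destruction, themselves HIF targets, moved apart. Egln3 had 2.67, 3.52 and 3.86 CPM in IL13KO cocultures, 17.2, 26.8 and 20.5 CPM in WT cocultures, and 0.591, 3.11, 2.12 and 0.492 CPM in monocultures. The WT cocultures were high, and the IL13KO cocultures overlapped the widely spread monocultures. It was 13.6-fold higher in WT cocultures (log2 fold change 3.77 ± 0.43, adjusted p = 7.71e-06), not called in IL13KO cocultures (1.09 ± 0.46, adjusted p = 0.0573), and 6.42-fold lower in IL13KO than in WT cocultures (-2.68 ± 0.43, adjusted p = 0.000657). Without monoculture 2, its highest monoculture, the values were 4.38 in WT cocultures and 1.70 in IL13KO cocultures, the second then called (adjusted p = 0.00554); without monoculture 3 the IL13KO value was 1.24 (adjusted p = 0.0476), and DESeq2 and limma-voom called it too (adjusted p = 0.0364 and 0.0254). Egln1, the main oxygen sensor of most cells, had 13.8, 12.6 and 12.1 CPM in IL13KO cocultures, 17.1, 18.1 and 32.0 CPM in WT cocultures, and 34.5, 34.1, 30.8 and 40.1 CPM in monocultures. The IL13KO cocultures lay below all others, and WT coculture 4 reached into the range of the monocultures. Its log2 fold change was -0.64 ± 0.20, adjusted p = 0.013 in WT cocultures, -1.44 ± 0.21, adjusted p = 8.2e-05 in IL13KO cocultures and -0.80 ± 0.22, adjusted p = 0.0171 between the cocultures. The WT call was lost without WT coculture 1 (adjusted p = 0.0754) or 3 (0.0634), and the value was -0.98 without WT coculture 4. The call between the cocultures was lost without IL13KO coculture 2 (0.0645) or 3 (0.0612) or WT coculture 4 (0.0682). Egln3 over Egln1, per length, was 0.261 to 0.429 in IL13KO cocultures, 0.867 to 1.99 in WT cocultures, and 0.0166 to 0.123 in monocultures.

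Of the mitophagy receptors, Bnip3 had 283, 215 and 257 CPM in IL13KO cocultures, 367, 653 and 513 CPM in WT cocultures, and 275, 311, 259 and 239 CPM in monocultures. The WT cocultures stood above the rest, at 0.91 ± 0.17, adjusted p = 0.000364 against monocultures, while the IL13KO cocultures had -0.11 ± 0.17, adjusted p = 0.605 and lay below the WT cocultures (-1.02 ± 0.18, adjusted p = 0.00136). Its relative Bnip3l ran at 328 to 411 CPM in IL13KO cocultures, 309 to 427 CPM in WT cocultures, and 432 to 636 CPM in monocultures. It fell in WT cocultures (log2 fold change -0.55 ± 0.15, adjusted p = 0.00642) and in IL13KO cocultures (-0.51 ± 0.15, adjusted p = 0.011), the second call being lost without IL13KO coculture 2 (adjusted p = 0.0512) or 3 (0.0562), with no call between the cocultures (0.038 ± 0.16, adjusted p = 0.892). With the GC and length trend removed, Bnip3l lost its calls in WT (-0.14, adjusted p = 0.34) and IL13KO cocultures (-0.13, adjusted p = 0.433). Bnip3 was then called higher in IL13KO cocultures than in monocultures (0.43, adjusted p = 0.0303). The ratio of Bnip3 to Bnip3l, per length, was 1.17 to 1.45 in IL13KO cocultures, 2.20 to 3.01 in WT cocultures, and 0.803 to 1.18 in monocultures.

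P4ha1 and P4ha2 encode the catalytic subunits of collagen prolyl hydroxylase, which fibroblasts need to build stable collagen. P4ha1 had 420.1, 414 and 402 CPM in IL13KO cocultures, 644, 704 and 828 CPM in WT cocultures, and 289.5, 356, 295 and 288 CPM in monocultures. P4ha2 had 668, 612 and 609.8 CPM in IL13KO cocultures, 758, 932 and 849 CPM in WT cocultures, and 480.2, 505, 455 and 504 CPM in monocultures. For both genes the WT cocultures were highest, the monocultures lowest, and no groups overlapped. P4ha1 rose in WT cocultures (log2 fold change 1.24 ± 0.10, adjusted p = 6.73e-07) and IL13KO cocultures (0.42 ± 0.10, adjusted p = 0.00387) and was lower in IL13KO than in WT cocultures (-0.82 ± 0.11, adjusted p = 0.000237). P4ha2 gave 0.80 ± 0.09, adjusted p = 6.55e-06, 0.37 ± 0.09, adjusted p = 0.00306 and -0.43 ± 0.10, adjusted p = 0.00626 for the same comparisons, and its IL13KO value turned to -0.085, adjusted p = 0.545 with the GC and length trend removed.

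Of the 5 remaining HIF targets, Ddit4 rose and Ndrg1 and Adm fell in both cocultures, Ankrd37 was lower in IL13KO cocultures and Vegfa was not called. Ddit4, which restrains mTOR signalling, had 133, 122 and 117 CPM in IL13KO cocultures, 122, 144 and 97.5 CPM in WT cocultures, and 16.7, 39.5, 48.8 and 32.4 CPM in monocultures. Both cocultures lay above all monocultures and overlapped each other: 1.82 ± 0.25, adjusted p = 4.41e-05 in WT cocultures, 1.85 ± 0.25, adjusted p = 5.86e-05 in IL13KO cocultures and 0.029 ± 0.26, adjusted p = 0.955 between them. Ndrg1, a stress-induced gene, ran at 34.8 to 40.3 CPM in IL13KO cocultures, 35.2 to 44.2 CPM in WT cocultures, and 55.2 to 65.8 CPM in monocultures. It fell in WT cocultures (log2 fold change -0.64 ± 0.12, adjusted p = 0.000386) and IL13KO cocultures (-0.64 ± 0.12, adjusted p = 0.000493). Adm, which encodes the vasodilator adrenomedullin, ran at 108 to 154 CPM in IL13KO cocultures, 111 to 147 CPM in WT cocultures, and 164 to 229 CPM in monocultures, and fell too, by 0.65 in WT and 0.68 in IL13KO cocultures on the log2 scale (adjusted p = 0.00287 and 0.00257). Neither was called between the cocultures (Ndrg1 adjusted p = 0.998; Adm adjusted p = 0.926). Vegfa, the endothelial growth factor often read as a mark of hypoxia, was called in no comparison (WT -0.024 ± 0.21, adjusted p = 0.93; IL13KO 0.25 ± 0.21, adjusted p = 0.325; IL13KO against WT 0.28 ± 0.22, adjusted p = 0.409).

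Ankrd37, an ankyrin-repeat gene known as a HIF target, was low, at 1.65 to 1.98 CPM in IL13KO cocultures, 3.28 to 4.87 CPM in WT cocultures, and 2.12 to 5.18 CPM in monocultures. It was not called in WT cocultures (0.25 ± 0.28, adjusted p = 0.456), and was lower in IL13KO cocultures than in monocultures (log2 fold change -0.91 ± 0.30, adjusted p = 0.0217) and than in WT cocultures (-1.16 ± 0.31, adjusted p = 0.0174). The first of these calls was lost without IL13KO coculture 1 (adjusted p = 0.0575) or 2 (0.081) or monoculture 2 (0.0672), and the second without IL13KO coculture 1 (0.0585) or 2 (0.0765) or WT coculture 3 (0.0706) or 4 (0.0531). Its IL13KO cocultures did not overlap either of the other groups.

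Read per length, Aldoa, Eno1, Ldha and Pkm were the most abundant of the 38 transcripts in every group. In TPM, reads per length scaled to a common sum, Aldoa averaged 2610.2 ± 201 TPM in IL13KO cocultures, 3356 ± 109 TPM in WT cocultures and 1514 ± 268 TPM in monocultures (SD, n = 3, 3 and 4). Eno1 averaged 2225 ± 176 TPM in IL13KO cocultures, 3464 ± 194 TPM in WT cocultures and 1155 ± 172 TPM in monocultures. Ldha averaged 1509 ± 147 TPM in IL13KO cocultures, 2356 ± 222 TPM in WT cocultures and 905 ± 93.9 TPM in monocultures, and Pkm 1968 ± 114 TPM in IL13KO cocultures, 2194 ± 46.9 TPM in WT cocultures and 795 ± 194 TPM in monocultures. At the other end, Aldoc averaged 1.12 ± 0.329 TPM in IL13KO cocultures, 1.87 ± 0.190 TPM in WT cocultures and 0.767 ± 0.437 TPM in monocultures.

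Fold changes of the cocultures over monocultures followed the GC content of transcripts across all genes. Spearman's rho between GC content and log2 fold change, across 16313 genes that are not independent, was 0.34 for WT against monocultures, 0.40 for IL13KO against monocultures and 0.05 for IL13KO against WT cocultures. Median transcript GC was 53.5% for the 15 glycolytic enzymes, 50.9% for the 11 HIF targets outside glucose metabolism and 49.6% for all genes. With the trend over GC content and length removed by a smooth curve in each library, 11 of 15 glycolytic enzymes were called higher and 1 lower in WT cocultures, in place of 14 and 0, and 4 higher and 1 lower in IL13KO cocultures, in place of 9 and 0, with medians of 0.85 and 0.13. All genes then gave 29.2% higher and 28.5% lower in WT cocultures, and 23.3% and 22.3% in IL13KO cocultures. In IL13KO against WT cocultures the same step left 11 of 15 lower, in place of 8, with a median of -0.65. Of all genes, 13.5% were then lower, in place of 11.6%.

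Which genes kept their call differed by comparison. In IL13KO cocultures against monocultures the calls of Slc2a1 (0.24, adjusted p = 0.0725), Pfkl (0.077, adjusted p = 0.722), Pfkm (0.081, adjusted p = 0.806), Gapdh (0.13, adjusted p = 0.318), Eno1 (0.098, adjusted p = 0.426), Pkm (0.14, adjusted p = 0.272), Bnip3l (-0.13, adjusted p = 0.433) and Ankrd37 (-0.52, adjusted p = 0.166) were lost. P4ha2 (-0.085, adjusted p = 0.545) also lost its call, and Hk2, called higher before, was called lower (-0.64, adjusted p = 0.00177). Pgk1 (0.27, adjusted p = 0.041), Pdk3 (0.39, adjusted p = 0.00913) and Bnip3 (0.43, adjusted p = 0.0303) were called higher. In WT cocultures Hk2 (-0.31, adjusted p = 0.0602), Pfkm (0.094, adjusted p = 0.759), Aldoc (0.88, adjusted p = 0.0604) and Bnip3l (-0.14, adjusted p = 0.34) lost their calls. Slc16a1 (0.28, adjusted p = 0.00999) was called higher, and Eno2 was called lower (-0.65, adjusted p = 0.0301). Called rises that stayed called but shrank by more than 1.5 times in WT cocultures were those of Slc2a1 (1.42), Hk1 (1.80), Pfkl (0.76), Pkm (0.50), Pfkfb3 (2.84), Pfkfb4 (2.94), Slc16a3 (4.61) and Epas1 (2.90). In IL13KO cocultures the same held for Hk1 (1.3), Pfkfb3 (1.84), Pfkfb4 (1.38), Slc16a3 (2.74) and Epas1 (2.37). The fall of Egln1 grew to -2.72, and to -1.73 in WT cocultures. Between the cocultures the step added calls for Hk1 (-0.50, adjusted p = 0.0376), Pfkl (-0.68, adjusted p = 0.00936) and Pkm (-0.36, adjusted p = 0.0248). The plot of changes with and without the trend shows all 38 genes.

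**Figure D5:**
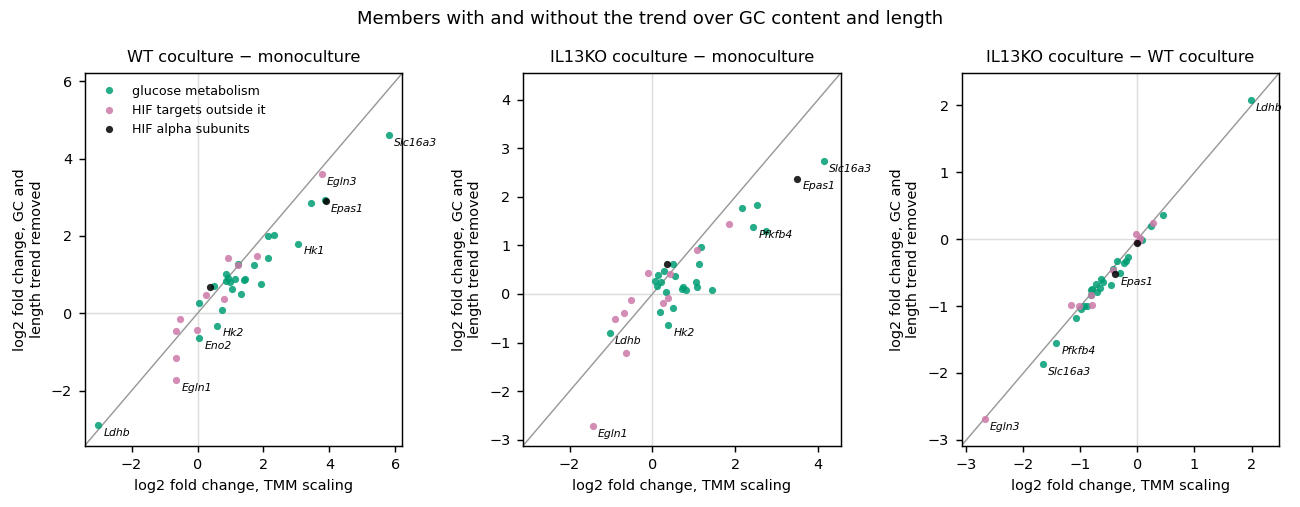
Log2 fold change of each of the 38 genes with TMM scaling (x axis) and with the trend over GC content and length removed (y axis), for the 3 comparisons, coloured by role; the grey line marks equal values. Most glucose metabolism genes lie below the line against monocultures, and nearly all points lie near it for IL13KO minus WT coculture, where Ldhb is the highest and Egln3 the lowest.

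Other genes of the same pathways were counted from lists chosen with earlier results of these data known, and are set beside the shares of all genes: 32.8% higher and 29.7% lower in WT cocultures, 30.1% and 27.3% in IL13KO cocultures, and 11.7% and 11.6% in IL13KO against WT cocultures. Of 20 other tested glycolysis genes, 5 were higher and 6 lower in WT cocultures, 5 and 3 in IL13KO cocultures, and 1 and 4 in IL13KO against WT cocultures, shares near or below those of all genes in the comparisons with monocultures. Among them, the glucose transporter genes Slc2a10 (log2 fold change 3.61 ± 0.30, adjusted p = 6.4e-07 in WT, 3.36 ± 0.30, adjusted p = 2.61e-06 in IL13KO cocultures) and Slc2a6 (3.07 ± 0.31, adjusted p = 3.16e-06 and 1.44 ± 0.32, adjusted p = 0.00192) rose. Bsg, the partner that MCT1 and MCT4 need at the membrane, fell in WT cocultures (-0.69 ± 0.12, adjusted p = 0.000326) and had -0.12 ± 0.12, adjusted p = 0.421 in IL13KO cocultures. Of 13 genes of pyruvate entry, 3 were higher and 6 lower in WT cocultures, 4 and 7 in IL13KO cocultures, and 3 and 0 between the cocultures. Mpc2, a subunit of the mitochondrial pyruvate carrier, fell in both (-1.38 ± 0.09, adjusted p = 7.08e-08; -0.82 ± 0.09, adjusted p = 7.49e-06). Pcx, pyruvate carboxylase, rose in both (3.06 ± 0.28, adjusted p = 1.16e-06; 3.38 ± 0.28, adjusted p = 1.36e-06). Of 17 citrate cycle genes, 5 were higher and 8 lower in WT cocultures, 4 and 9 in IL13KO cocultures, and 0 and 5 between the cocultures. Ogdh was higher in both (1.61 ± 0.12, adjusted p = 3.37e-07; 1.63 ± 0.12, adjusted p = 8.49e-07) and Sdhb lower in both (-0.59 ± 0.10, adjusted p = 0.000232; -0.76 ± 0.10, adjusted p = 4.49e-05).

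Of 37 other tested HIF targets, 17 were higher and 11 lower in WT cocultures, 16 and 8 in IL13KO cocultures, and 10 and 11 in IL13KO against WT cocultures. Of all genes, 32.8% were higher and 29.7% lower, 30.1% and 27.3%, and 11.7% and 11.6% in the same comparisons. The median log2 fold change of the list in IL13KO against WT cocultures was 0.0095. Lox and Ak4, named next, are among the 11 lower there, and none of the 10 higher is named. Lox, the collagen cross-linking enzyme, rose in WT cocultures (log2 fold change 2.66 ± 0.08, adjusted p = 2.9e-10) and IL13KO cocultures (1.53 ± 0.08, adjusted p = 9.23e-08) and was lower in IL13KO than in WT cocultures (-1.13 ± 0.09, adjusted p = 2.03e-06). The same was called for Ak4, an adenylate kinase of mitochondria (3.03 ± 0.14, adjusted p = 7.34e-09; 1.75 ± 0.14, adjusted p = 1.27e-06; -1.28 ± 0.14, adjusted p = 4.09e-05). Of 19 regulators of HIF, 9 were higher and 6 lower in WT cocultures, 9 and 5 in IL13KO cocultures, and 1 and 1 between the cocultures. Myc, a factor with many glycolytic targets, rose in WT cocultures (1.81 ± 0.12, adjusted p = 1.25e-07) and IL13KO cocultures (0.91 ± 0.12, adjusted p = 5.51e-05) and was lower in IL13KO than in WT cocultures (-0.90 ± 0.13, adjusted p = 0.000358). Egln2, the remaining HIF prolyl hydroxylase, rose in both (2.26 ± 0.23, adjusted p = 3.6e-06; 2.27 ± 0.23, adjusted p = 6.96e-06) with no call between them (0.0052 ± 0.24, adjusted p = 0.991). Hif1an, the asparaginyl hydroxylase that blunts HIF, rose in WT and IL13KO cocultures (1.28 ± 0.18, adjusted p = 4.05e-05; 1.28 ± 0.18, adjusted p = 6.25e-05). Arnt, the partner of the alpha subunits, rose too (1.14 ± 0.17, adjusted p = 6.44e-05; 1.32 ± 0.17, adjusted p = 3.01e-05).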

How the data were processed

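Bulk RNA-seq libraries of sorted fibroblasts were prepared from total RNA by a kit for low input, and 50-nt paired reads were sequenced, per the labels' protocols. The submitters' processing notes name Trimmomatic 0.39, STAR 2.7.7a, Salmon 1.6.0 and DESeq2, and build GRCm38.p6; the counting tool and its strand setting are not given in the sources used here. The authors deposited raw counts per Ensembl gene, whole numbers and not normalized, which were analysed here; a second deposited table of the same counts divided by 1 factor per library was not used. The numbers of the WT coculture columns (1, 3 and 4) differ from those in the sample titles, so these columns were assigned to the group only. From the counts, edgeR 4.0.16 in R 4.3.3 was run with filterByExpr (16344 genes kept), TMM scaling and 1 coefficient per group over all 10 libraries, with quasi-likelihood tests and Benjamini-Hochberg adjustment within each comparison. CPM uses TMM-scaled library sizes, and TPM and ratios between genes use the length of each gene's longest transcript in GENCODE vM21. Fold changes in words are ratios of mean CPM. Errors are SD for means and SE for log2 fold changes. Aldoa has a second identifier, not used here. Promoters are RefSeq windows. Copies were found with blastn (at least 95% identity over at least 200 bases and 50% of the copy's transcript).

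The alternatives were upper-quartile and RLE scaling, no filter or 1 CPM in 3 libraries, a fit of each pair of groups alone, the replicate number as a block, testing for changes beyond 1.5-fold, removal of the GC and length trend (loess, span 0.4), added copy reads, DESeq2 1.42.0, limma-voom 3.58.1, and leaving out each library. The script for the tests was tested on simulated data. All 38 genes are accounted for; from each other list the text draws on up to 4 called genes per comparison with the smallest adjusted p. The 38 genes and the lists were chosen with earlier results of these data known, so counts over them are descriptions. Marker lists other than those in the results had summed levels, for 4 endothelial markers, of 10.3 to 15.5 CPM in IL13KO cocultures, 12.5 to 16.6 CPM in WT cocultures, and 5.83 to 12.3 CPM in monocultures; and for 4 epithelial markers, 0.397 to 2.16 CPM in IL13KO cocultures, 1.29 to 3.33 CPM in WT cocultures, and 0 to 2.12 CPM in monocultures.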

Additional observations from a re-analysis of the deposited data

Results flagged for a closer look

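In groups of 4 libraries, a value was picked out when its gap to the nearest other value passed Dixon's 95% limit for the group's range. The 4 monocultures were examined for 52 values, the 38 genes and the 14 ratios, and chance alone picks out about 1 in 20; 4 were found. Pfkl stood low in monoculture 1, at 74.2 CPM against 149 to 156 CPM in the other monocultures. Hk2 stood low in monoculture 4, at 23.6 CPM against 30.4 to 31.3 CPM. Slc16a1 stood low in monoculture 3, at 86.8 CPM against 105 to 108 CPM. P4ha1 stood high in monoculture 2, at 356 CPM against 288 to 295 CPM. Each of the 4 monocultures supplies 1 of these values. Monoculture 1 was the lowest of the 4 for 19 of the 38 genes, monoculture 3 for 11, monoculture 4 for 7 and monoculture 2 for 1. Without monoculture 1 the counts of called genes were 34, 28 and 24 in the 3 comparisons, in place of 34, 28 and 22. Of all genes, 15% were then higher and 14.7% lower in IL13KO against WT cocultures, in place of 11.7% and 11.6%. Against monocultures the shares were 32.7% and 29.7% in WT cocultures, and 29.8% and 26.7% in IL13KO cocultures.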

How the results depend on the processing

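Across 20 alternatives (the test against 1.5-fold aside), 79 of 114 calls (38 genes in 3 comparisons) were the same throughout; a gene uncalled both ways counts as the same. Of the values called with or without it, the GC and length step turned 5 round: Hk2 to -0.31 in WT and -0.64 in IL13KO cocultures, Eno2 to -0.65 in WT, and Bnip3 to 0.43 and P4ha2 to -0.085 in IL13KO cocultures, all against monocultures. Sign changes of values uncalled both ways are not counted among these. Tested against a fold change of 1.5, 24 genes were higher and 1 was lower in WT cocultures against monocultures, beside 3603 and 2281 of all 16344 genes. In IL13KO cocultures against monocultures 14 genes were called, 12 higher and 2 lower, beside 3092 and 1142 of all genes. In IL13KO against WT cocultures 6 were called, 5 of them lower, beside 571 higher and 538 lower of all genes. Leaving out 1 library gave 31 to 34 calls in WT cocultures (26 to 29 higher, 4 to 5 lower), 24 to 29 in IL13KO cocultures (19 to 23 higher, 4 to 6 lower) and 18 to 24 between the cocultures (1 higher, 17 to 23 lower). Over all genes, 16217 to 16816 tested, these fits called 4907 to 5515 higher and 4163 to 4944 lower in WT cocultures. They called 4375 to 5099 and 3516 to 4628 in IL13KO cocultures, and 1238 to 2426 and 1098 to 2388 between the cocultures. Upper-quartile scaling put the median gene at -0.11 and -0.10 (log2) in the WT and IL13KO cocultures, against 0.02 and 0.00 with TMM, and gave 32, 24 and 21 calls. Of all genes it called 29.5% higher and 34.5% lower, 27.5% and 32.2%, and 12.3% and 11% in these comparisons. The cause of the shift was not tested.

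Groups share replicate numbers, but the 8 same-numbered pairs of libraries whose numbers could be matched had correlations of -0.126 to 0.028 in their deviations from the group means, against -0.153 to 0.14 for 25 other pairs, so the numbers were not taken to pair samples. With the replicate block 32, 27 and 18 genes were called. Over all genes the block left 1138 higher and 986 lower calls between the cocultures, in place of 1909 and 1901. Against monocultures it called 30.9% of all genes higher and 26.7% lower in WT cocultures, and 27.9% and 22.8% in IL13KO cocultures. The protein identity of related enzymes was not run.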

Other observations

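Of all genes, 32.8% were higher and 29.7% lower in WT cocultures than in monocultures, 30.1% and 27.3% in IL13KO cocultures, and 11.7% and 11.6% in IL13KO against WT cocultures; lists of 8 genes beside these shares are descriptions. Of 8 pentose phosphate genes, 6 were higher and 1 lower in WT cocultures than in monocultures, 5 and 1 in IL13KO cocultures, and 0 and 1 in IL13KO against WT cocultures. H6pd, the glucose 6-phosphate dehydrogenase of the endoplasmic reticulum, averaged 163 ± 9.69 CPM in IL13KO cocultures, 190.2 ± 64.2 CPM in WT cocultures and 38.6 ± 9.26 CPM in monocultures (SD, n = 3, 3 and 4), with log2 fold changes of 2.30 ± 0.22, adjusted p = 1.62e-06 in WT and 2.08 ± 0.22, adjusted p = 7.2e-06 in IL13KO cocultures. Of 8 glycogen genes, 5 were higher and 2 lower in WT cocultures, 3 and 1 in IL13KO cocultures, and 0 and 0 between the cocultures. Gys1, glycogen synthase, averaged 56.9 ± 3.97 CPM in IL13KO cocultures, 79.6 ± 7.44 CPM in WT cocultures and 13.1 ± 4.43 CPM in monocultures, with 2.61 ± 0.20, adjusted p = 3.33e-07 in WT and 2.13 ± 0.20, adjusted p = 3.72e-06 in IL13KO cocultures, and Gyg, the primer of glycogen, fell (-1.0 ± 0.11, adjusted p = 6.01e-06; -0.76 ± 0.11, adjusted p = 8.13e-05). Neither H6pd (-0.23 ± 0.22, adjusted p = 0.513) nor Gys1 (-0.48 ± 0.20, adjusted p = 0.105) was called between the cocultures, where 21 of the 38 genes of the report were lower in IL13KO than in WT cocultures; that difference between lists was not tested.

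Arnt2, a relative of the HIF partner Arnt, averaged 3.14 ± 0.114 CPM in IL13KO cocultures, 0.514 ± 0.352 CPM in WT cocultures and 3.0 ± 0.961 CPM in monocultures, and among the 19 HIF regulators it was the 1 called higher in IL13KO than in WT cocultures (2.57 ± 0.46, adjusted p = 0.00158).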
